A study of Mus musculus with 18 samples.

Results

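The choroid plexus is the fringe of secretory epithelium that hangs in the brain's ventricles and makes most of the cerebrospinal fluid. Its cells pump ions and water, carry vitamins and hormones from blood into that fluid, and are sealed to each other by tight junctions. In the mouse brain it lies against the hippocampus in the lateral ventricle, so a dissected hippocampus can carry some of it along. The 30 genes described here are widely used choroid plexus genes, taken from a written list that was made with earlier results of these arrays known. The arrays name 18194 genes by a single symbol, and 27 of the 30 are among them.

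Total RNA from the hippocampus of mice, the brain region on which spatial memory depends, was hybridised to 18 Affymetrix arrays of 1 colour. The 3 groups were aged impaired, with poor spatial memory (n = 6), aged unimpaired, with good spatial memory (n = 6), and young (n = 6). No treatment or mutation is named for any group, and the sources used here give no age in weeks or months, no strain and no sex. The labels do not state that each sample is a separate animal, so the p-values measure the spread between these samples, which can include technical spread.

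Values are log2 of signal plus an offset of 16, after scaling so that every array had a trimmed mean of 500. A gene was read on its probe set of highest mean, and a probe set was tested when its mean lay above the lowest 40% of the array, a line at 5.92. Of the 30 genes, 27 had a probe set with 1 symbol, and 25 of these had one above the line. Lmx1a, a transcription factor of the roof plate from which choroid plexus develops, and Tmem72, a membrane protein, lay below it. Tmem72 had a mean of 5.90, just under the line, and its lowest, median and highest values were 4.91, 5.81 and 6.93 in aged impaired, 4.35, 5.71 and 7.49 in aged unimpaired and 4.68, 5.91 and 7.45 in young samples. Lmx1a had a mean of 5.13. Mfrp, a membrane frizzled-related protein, was covered only by a probe set that carries a second symbol and was therefore left unnamed. Enpp2, the secreted phospholipase autotaxin, and Prlr, the prolactin receptor, were not analysed here.

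The transcripts varied together over a wide range in every group. A choroid plexus amount was computed for each array as the mean log2 value of 9 core genes, namely Ttr, Folr1, Aqp1, Calml4, Kl, Clic6, Otx2, Sostdc1 and Slc4a5. It was 9.86 ± 1.11 in aged impaired, 9.02 ± 1.51 in aged unimpaired and 9.81 ± 1.15 in young samples (SD, n = 6 each). The lowest, median and highest amounts were 7.84, 9.99 and 11.04 in aged impaired, 7.37, 8.98 and 10.92 in aged unimpaired and 7.78, 10.29 and 10.76 in young samples. The ranges of all 3 groups thus overlapped almost completely.

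The arrays did not spread evenly over that range. The widest gap between neighbouring amounts was 1.2, against 0.49 for the next, and it left 5 arrays at 7.37 to 7.94 and 13 arrays at 9.14 to 11.04. The 5 low arrays were aged impaired replicate 5, aged unimpaired replicates 3, 4 and 5, and young replicate 6. The plot of all transcripts by array shows these 5 arrays low for nearly every gene. In bulk tissue, fewer choroid plexus cells and less RNA per such cell cannot be told apart.

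**Figure D1:**
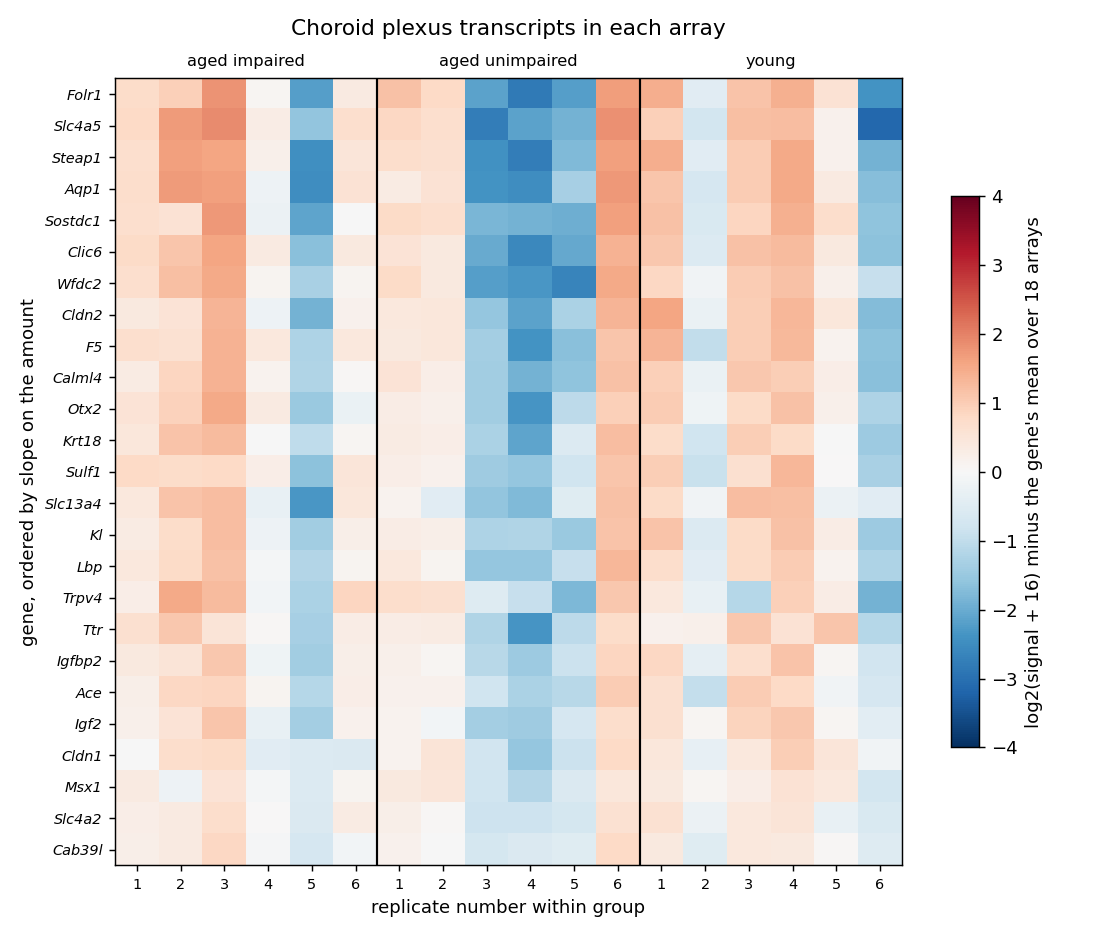
Level of the 25 tested choroid plexus transcripts in each of the 18 arrays, as log2(signal + 16) minus the gene's mean over all arrays (red above it, blue below it), with arrays in columns by group and replicate and genes in rows by slope on the amount. The same 5 columns, aged impaired 5, aged unimpaired 3, 4 and 5 and young 6, are blue over most rows.

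Each gene was then fitted on the amount within groups, and the gene itself was left out of the amount when it was a core gene. The slope is in log2 units of the gene for each log2 unit of the amount, so a gene at 1 changes as much as the core genes on average. All 25 tested genes rose with the amount at an adjusted p under 0.05 (limma, Benjamini-Hochberg over 27022 probe sets), where 1.45% of all probe sets were called, 377 upward and 15 downward. The slopes ran from 0.37 for Cab39l to 1.33 for Folr1 with a median of 0.76, and the highest adjusted p was 0.00117, for Trpv4. The median slope of all probe sets was 0.0036. The members were chosen with earlier results of these arrays known, so their count is a description.

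The amount took up most of the spread of these genes. Their median SD within groups was 1.07 before and 0.270 at equal amount. The share of the within-group variance that was left had a median of 6.71% for the 25 genes, with 0.936% for Clic6 and 28.4% for Trpv4 at the ends, against a median of 95.3% over all probe sets. In a fit of only the 13 arrays above the gap, chosen after the data had been seen, 21 of the 25 slopes passed, beside 0.481% of all probe sets. The 4 that did not were Ttr, Slc4a2, Trpv4 and Msx1. Among those that passed, Ace had a slope of 0.93 ± 0.12 there, against 0.60 ± 0.06 over all 18 arrays, and Cab39l had 0.63 ± 0.06, against 0.37 ± 0.04. Folr1 had 1.12 ± 0.10, against 1.33 ± 0.04, and Clic6 had 1.05 ± 0.07, against 1.06 ± 0.03. Whether these pairs of slopes differ was not tested, since the arrays are shared.

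**Figure D2:**
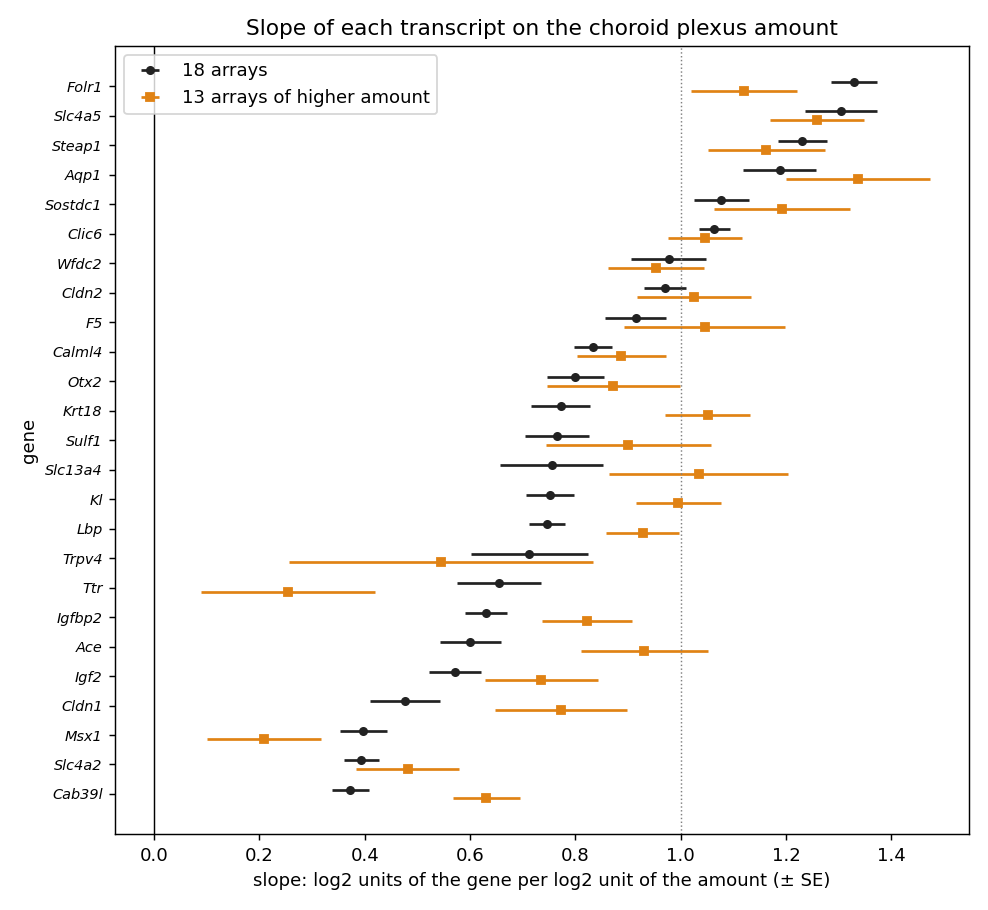
Slope of each of the 25 transcripts on the choroid plexus amount (log2 per log2, bars are 1 SE), in all 18 arrays (black circles) and in the 13 arrays above the gap (orange squares). All black points lie between 0.37 and 1.33, and the orange points of Ttr (0.25) and Msx1 (0.21) lie closest to 0.

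Secreted proteins formed the first set by role, with 8 of 9 genes tested and a median slope of 0.76. Ttr encodes transthyretin, the carrier of thyroid hormone in cerebrospinal fluid. Its lowest, median and highest levels were 14.02, 15.77 and 16.43 in aged impaired, 12.999, 14.97 and 16.08 in aged unimpaired and 14.23, 15.75 and 16.47 in young samples. Each group held both low and high arrays. The rescaled signal spanned 11.1-fold on this probe set, up to 90753, and 12.1-fold, 14.2-fold and 32.0-fold on the other 3, so the size of the span depends on the probe set. Whether the strongest signals were limited by the top of the scanner's scale was not tested. The 4 tested Ttr probe sets had slopes of 0.66, 0.70, 0.82 and 1.19 over 18 arrays, and 0.25, 0.33, 0.39 and 0.55 over the 13 arrays above the gap. Among those arrays Ttr, on its probe set of highest mean, was the core gene whose slope did not pass (0.25 ± 0.17, adjusted p = 0.658 by limma).

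Sostdc1, a secreted antagonist of BMP and Wnt signals, had a slope of 1.08 ± 0.05. Its lowest, median and highest levels were 7.58, 9.97 and 11.41 in aged impaired, 7.72, 9.10 and 11.34 in aged unimpaired and 8.08, 10.47 and 11.12 in young samples. The groups overlapped, and the rescaled signal spanned 15.5-fold.

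Igf2, a growth factor made by choroid plexus and meninges, had a slope of 0.57 ± 0.05. Its lowest, median and highest levels were 9.41, 10.94 and 11.86 in aged impaired, 9.33, 10.35 and 11.47 in aged unimpaired and 10.31, 11.11 and 11.84 in young samples. No young array fell as low as the lowest arrays of the aged groups, though the ranges overlapped. Igfbp2, which binds insulin-like growth factors, had a slope of 0.63 ± 0.04 and a 6.07-fold span.

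Among the other secreted proteins, Wfdc2, a small protein with whey acidic protein domains, had a slope of 0.98 and levels from 5.07 to 9.24 over all arrays. F5, coagulation factor V, had a slope of 0.91 and levels from 5.49 to 9.25. The lowest arrays of both lay under the line of 5.92, so no fold is given for them or for other genes that reached below it. Sulf1, a sulfatase that trims heparan sulfate, and Lbp, which binds bacterial lipopolysaccharide, had slopes of 0.76 and 0.75 and spans of 8.84-fold and 7.97-fold.

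Transporters and channels had the steepest slopes, with 8 of 8 genes tested and a median of 1.13. Folr1, the receptor that brings folate into cerebrospinal fluid, had levels with a lowest, median and highest of 6.89, 9.63 and 10.90 in aged impaired, 6.26, 8.43 and 10.75 in aged unimpaired and 6.69, 9.94 and 10.55 in young samples. The 3 ranges were nearly alike, and the slope was 1.33 ± 0.04 with a 31.1-fold span of the rescaled signal. Aqp1, the water channel of the ventricle-facing membrane, ran through 5.29, 8.41 and 9.46 in aged impaired, 5.27, 7.27 and 9.49 in aged unimpaired and 6.07, 8.47 and 9.28 in young samples. Its slope was 1.19 ± 0.07.

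Slc4a5 encodes a sodium bicarbonate cotransporter of the ventricle-facing membrane. Its lowest, median and highest levels were 5.66, 7.98 and 9.13 in aged impaired, 4.48, 6.63 and 9.06 in aged unimpaired and 4.12, 7.81 and 8.49 in young samples. The lowest array, young replicate 6, was near the log2 value of 4 that the offset alone gives, and below the line. The slope of Slc4a5 was 1.31 ± 0.07. Steap1, a membrane protein of the metalloreductase family, had levels from 5.27 to 9.67 over all arrays and a slope of 1.23 ± 0.05.

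The promoters of Slc4a5 and Steap1 are shown because these genes had the largest slopes among members with a promoter entry in the RefSeq table that could be printed. Each window runs from 250 bases before to 50 bases after the gene's start in build GRCm38.p6, 5′ to 3′ on the gene's strand. The Slc4a5 window is chr6:83237125-83237424 on the plus strand and the Steap1 window is chr5:5749268-5749567 on the minus strand.
Slc4a5: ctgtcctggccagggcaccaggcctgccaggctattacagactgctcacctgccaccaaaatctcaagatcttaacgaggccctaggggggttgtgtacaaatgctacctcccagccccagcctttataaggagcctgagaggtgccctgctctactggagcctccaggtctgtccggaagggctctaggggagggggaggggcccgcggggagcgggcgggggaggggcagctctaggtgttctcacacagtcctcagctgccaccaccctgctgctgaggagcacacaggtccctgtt
Steap1: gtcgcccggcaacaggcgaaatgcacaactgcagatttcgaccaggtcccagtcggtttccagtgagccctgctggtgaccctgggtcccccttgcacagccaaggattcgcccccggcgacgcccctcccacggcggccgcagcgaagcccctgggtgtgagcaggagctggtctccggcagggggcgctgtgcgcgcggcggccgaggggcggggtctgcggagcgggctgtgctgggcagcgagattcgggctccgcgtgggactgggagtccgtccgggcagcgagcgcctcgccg

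Both windows were searched on both strands for TAATCC, the site of OTX homeodomain factors, and for TAATTA, a general homeodomain site, and neither motif was found in them. No letters are in capitals for that reason. Across members, 23 genes had 36 windows, of which 4 (11.1%) held TAATCC, for Ace, Igf2, Mfrp and Otx2. TAATTA was in 4 windows (11.1%) of Cldn1, Igf2 and Otx2. Of all 32851 promoter windows, 7.06% held TAATCC and 5.29% held TAATTA.

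Clic6, of the chloride intracellular channel family, followed the amount most tightly, with a slope of 1.06 ± 0.03. Its lowest, median and highest levels were 8.19, 10.44 and 11.44 in aged impaired, 7.29, 9.04 and 11.24 in aged unimpaired and 8.20, 10.60 and 11.13 in young samples. The rescaled signal spanned 19.7-fold, from the lowest aged unimpaired array to the highest aged impaired array, and the groups overlapped.

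Slc4a2, a chloride and bicarbonate exchanger that many tissues use, had a slope of 0.39 ± 0.03 and spanned 2.97-fold. Trpv4, a cation channel that responds to osmotic and mechanical stimuli, had levels of 4.86, 6.69 and 7.62 in aged impaired, 4.32, 6.19 and 7.19 in aged unimpaired and 4.22, 6.12 and 7.07 in young samples at the lowest, median and highest array. Several of these values lie close to the offset, and Trpv4 kept the most variance at equal amount. Its slope was 0.71 ± 0.11.

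Slc13a4, a sodium and sulfate cotransporter, had a slope of 0.76 ± 0.10 and levels of 6.38, 9.15 and 9.94 in aged impaired, 6.94, 8.23 and 9.87 in aged unimpaired and 8.24, 9.02 and 9.95 in young samples at the lowest, median and highest array. Young replicate 6 was the lowest young array at 8.24 and still lay above the 4 low arrays of the aged groups.

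**Figure D3:**
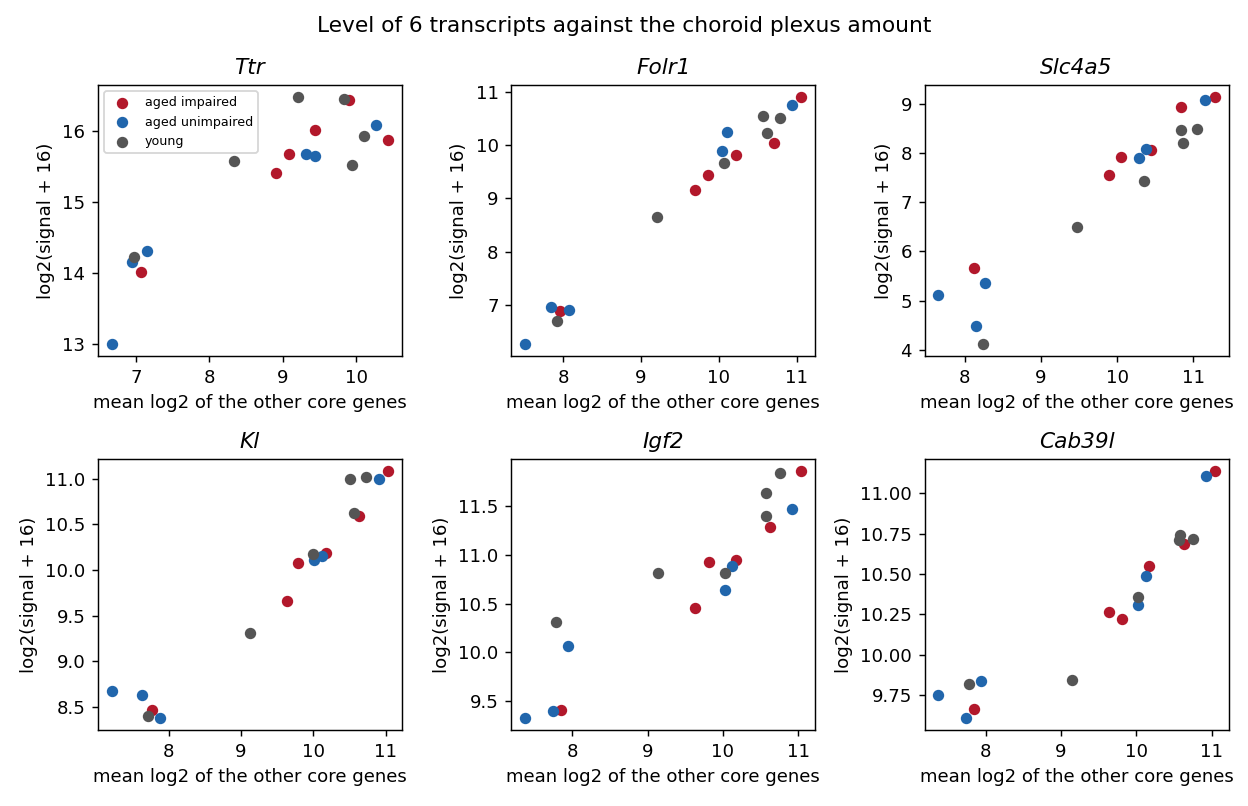
Level of Ttr, Folr1, Slc4a5, Kl, Igf2 and Cab39l in each array (vertical axis, log2(signal + 16)) against the mean log2 of the core genes other than the gene itself (horizontal axis), coloured by group. Folr1 and Slc4a5 rise steeply throughout (slopes 1.33 and 1.31), Ttr flattens over the 13 arrays of higher amount (slope 0.25 there), and Cab39l is shallow (0.37).

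Of 7 receptors, surface enzymes and signalling proteins, 4 were tested, with a median slope of 0.68. Kl encodes klotho, a co-receptor of the hormone FGF23. Its lowest, median and highest levels were 8.46, 10.13 and 11.09 in aged impaired, 8.38, 9.39 and 11 in aged unimpaired and 8.40, 10.40 and 11.02 in young samples. The 3 groups reached the same low and high ends, and the slope was 0.75 ± 0.05 with a 6.82-fold span.

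Calml4, a calmodulin-like protein, had a slope of 0.83 ± 0.04 and spanned 10.6-fold. Ace, angiotensin-converting enzyme, had a slope of 0.60 ± 0.06 and spanned 5.34-fold. Cab39l, a scaffold protein of the kinase LKB1, had the lowest slope of all (0.37 ± 0.04) and spanned 2.92-fold.

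The 3 genes of junctions and cytoskeleton were all tested and had a median slope of 0.77. Cldn2, a claudin that forms cation-permeable tight junctions, had levels of 5.98, 8.17 and 9.25 in aged impaired, 5.73, 7.46 and 9.26 in aged unimpaired and 6.14, 8.59 and 9.48 in young samples at the lowest, median and highest array. These ranges overlapped, and the slope was 0.97 ± 0.04. Krt18, a keratin of simple epithelia, had a slope of 0.77 and a 13.7-fold span. Cldn1, a sealing claudin, had a slope of 0.48 and levels from 5.63 to 8.19, and its other tested probe set was the 1 of 38 member probe sets past the line whose slope did not pass (0.32 ± 0.10, adjusted p = 0.163 by limma).

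Of 3 transcription factors, Otx2 and Msx1 were tested. Otx2, which is needed for choroid plexus to form, had a lowest, median and highest level of 6.52, 8.46 and 9.52 in aged impaired, 5.63, 7.58 and 8.97 in aged unimpaired and 6.76, 8.49 and 9.17 in young samples. The groups overlapped, and the slope was 0.80 ± 0.05. Msx1, a homeobox factor found in dorsal midline tissue, had a slope of 0.40 ± 0.05 and a 3.54-fold span.

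The slopes of the 3 groups were not told apart by the test. The slope differed between groups at an adjusted p under 0.05 for 0 of 25 members, and 0% of all probe sets were called in that F test of limma. At an unadjusted p under 0.05 there were 2 members and 1303 of the 27022 probe sets.

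Genes outside the 30 were ranked by the same slope. The 10 of highest t were Ecrg4 (slope 1.40), Kcnj13 (1.35), Slc2a12 (0.68), Kcne2 (1.60), Col8a1 (1.00), Cox8b (0.96), Defb11 (1.19), Spint2 (0.44), Slc16a8 (1.04) and Rdh5 (0.82). Kcnj13 and Kcne2 are a potassium channel and a potassium channel subunit of choroid plexus epithelium, Slc2a12 a glucose transporter, Slc16a8 a lactate transporter and Rdh5 a retinol dehydrogenase. Of a list of 32 other choroid plexus genes, 27 were tested and 20 rose with the amount, with a median slope of 0.30. The list was written with earlier results of these arrays known, so its count is a description.

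Lists of other cell types that a hippocampal dissection can hold were read in the same fit. Of 17 tested genes of ependyma, the ciliated lining of the ventricles, 6 rose with the amount. They were Dynlrb2 (0.37), Cfap126 (0.36), Pltp (0.17), Rsph1 (0.28), Tekt1 (0.27) and Foxj1 (0.28), all with smaller slopes than most members. The 16 genes of meninges and stroma had positive slopes with a median of 0.17, of which 0 passed, and Dcn (0.27 ± 0.07, adjusted p = 0.0717 by limma) and Lum (0.22 ± 0.06) came closest.

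No tested gene passed among 11 of endothelium, 8 of mural cells, 9 of myelin, 8 of astrocytes, 10 of neurons and 6 of thalamus and habenula. Their median slopes lay between -0.03 and 0.03. Values nearest to a call were those of Slco1a4 for endothelium (0.11 ± 0.03, adjusted p = 0.109), Sox9 for astrocytes (0.11 ± 0.03, adjusted p = 0.143) and Slc17a7 for neurons (-0.08 ± 0.03, adjusted p = 0.348), all by limma. Over all 13121 named genes tested, 239 rose and 7 fell with the amount.

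**Figure D4:**
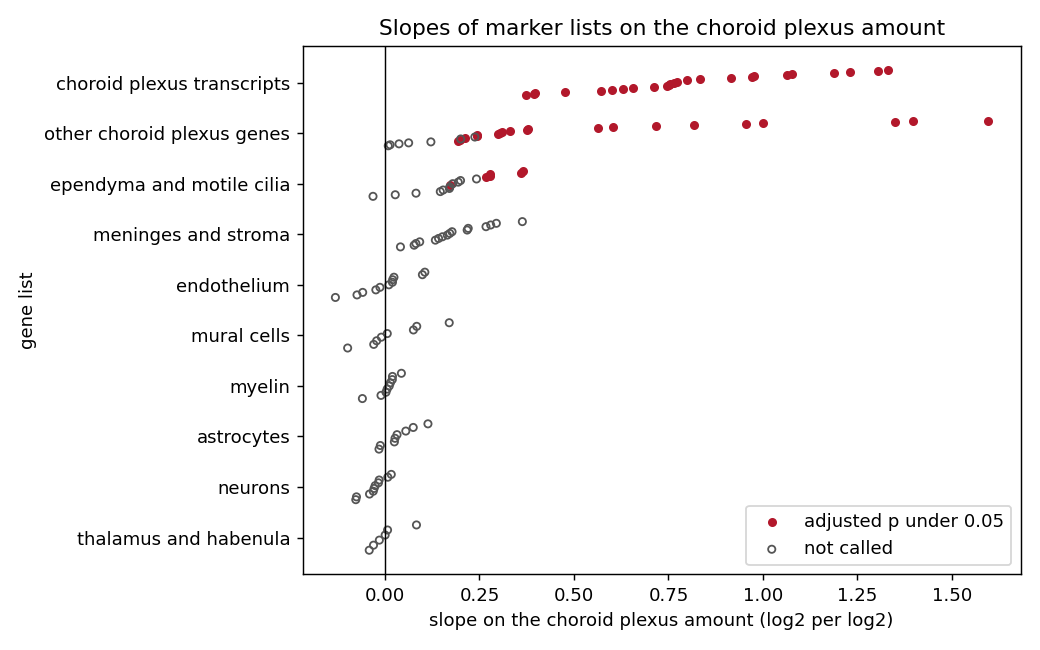
Slope on the choroid plexus amount (log2 per log2) of each tested gene in 10 lists, with 1 point per gene, filled red where the adjusted p was under 0.05. The 25 members and 20 of 27 other choroid plexus genes are red and extend past 1, 6 ependymal genes are red below 0.4, and the other lists have no red point.

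A second covariate, the mean of the meninges and stroma list, was added to ask whether members carried a part of their spread that went with that tissue. At equal amount it passed for 1 of 25 members, Slc13a4, beside 0.144% of all probe sets. Slc13a4 changed by 1.82 ± 0.23 log2 units for each log2 unit of the stromal mean (adjusted p = 0.00643, limma). Igf2 had 0.77 ± 0.17 (adjusted p = 0.112) and Aqp1 had 0.97 ± 0.26 (adjusted p = 0.184).

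The design's own comparison set aged impaired against aged unimpaired samples, to ask what accompanies poor memory in age. Before the amount was removed, every one of the 25 members had a higher mean in the aged impaired samples, with a median log2 difference of 0.60 and a range of 0.23 to 1.21. None passed the test in limma, and 0 had even an unadjusted p under 0.05, beside 0.0111% of all probe sets called at an adjusted p under 0.05. The median SE was 0.57, so differences of this size lay within the spread between samples. The median over all probe sets was 0.0058. Because the genes rise and fall together, their shared direction is close to a single observation, that of 1 low array among 6 in aged impaired and 3 among 6 in aged unimpaired samples.

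At equal amount the same comparison gave 10 positive and 15 negative differences with a median of -0.03 and a median SE of 0.16. None passed, beside 0.0111% of all probe sets called at an adjusted p under 0.05. At an unadjusted p under 0.05 there were 3 members. The share of all probe sets at that unadjusted threshold was not computed. Clic6 had the lowest p, with 0.30 ± 0.09 (95% interval 0.12 to 0.48, adjusted p = 0.477 in limma), though its other tested probe set gave 0.07 ± 0.12. Sostdc1 had -0.40 ± 0.16 (-0.73 to -0.08) and Cldn2 had -0.29 ± 0.12 (-0.54 to -0.04). For Ttr the difference was 0.20 with an interval of -0.32 to 0.72, for Folr1 -0.23 with -0.50 to 0.03, and for Kl -0.14 with -0.43 to 0.16. The intervals at equal amount were narrower, but the amount takes up what the core genes share. They therefore do not bound a difference common to all members, and for Ttr they still reached 0.72. With the amount not removed, the Ttr interval was -0.32 to 1.84.

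**Figure D5:**
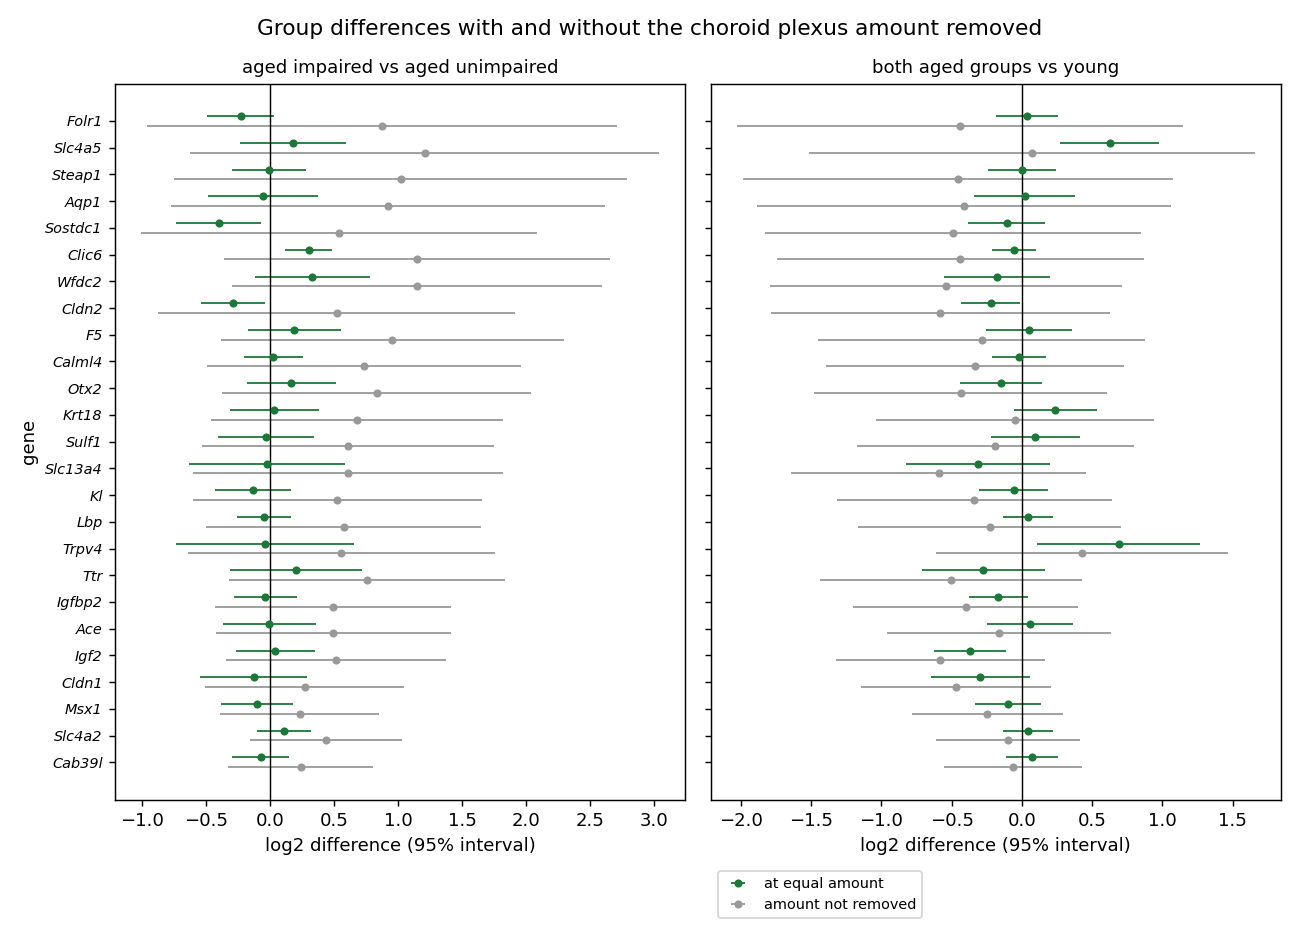
Log2 difference of each transcript with its 95% interval, for aged impaired against aged unimpaired samples (left) and both aged groups against young samples (right), at equal choroid plexus amount (green, upper bar of each pair) and with the amount not removed (grey, lower bar). The grey points on the left all lie above 0 with wide intervals, and the green points lie on both sides of 0 with narrow ones. Slc4a5 stands at 0.62 on the right.

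The comparisons with young samples share the same 6 young arrays. With the amount not removed, 24 of 25 members had a lower mean in aged unimpaired than in young samples, with a median difference of -0.70. Aged impaired samples had 14 higher and 11 lower means than young samples, with a median of 0.03, and both aged groups together had 23 lower means with a median of -0.40. Of all probe sets, 45.8%, 47.5% and 45.8% had a positive difference in these 3 comparisons. Members vary together, so each shared direction is close to a single observation. Low arrays numbered 3 among 6 aged unimpaired, 1 among 6 aged impaired and 1 among 6 young samples. No member passed in any of the 3 comparisons, and 0 had an unadjusted p under 0.05 in limma. Of all probe sets, 0.137% were called for aged unimpaired, 1.63% for aged impaired and 0.947% for both aged groups against young.

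At equal amount the medians were -0.0067 for aged unimpaired, -0.01 for aged impaired and -0.02 for both aged groups against young samples. The amount takes up what the core genes share, so these medians do not measure a difference common to all members. Again 0 members passed in limma, and 4 had an unadjusted p under 0.05 in each comparison. The share of all probe sets at that unadjusted threshold was not computed. Of all probe sets, 0.170%, 1.97% and 1.08% were called at an adjusted p under 0.05 in these 3 comparisons.

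Slc4a5 came nearest to a call. At equal amount its lowest, median and highest levels were 7.27, 7.57 and 7.93 in aged impaired, 6.70, 7.37 and 7.98 in aged unimpaired and 6.21, 6.91 and 7.17 in young samples. All 6 aged impaired values lay above all 6 young values, and the aged unimpaired values overlapped both. The difference was 0.71 ± 0.19 for aged impaired against young (95% interval 0.32 to 1.11, adjusted p = 0.0618), 0.54 ± 0.20 for aged unimpaired against young (adjusted p = 0.461) and 0.62 ± 0.17 for both aged groups against young (adjusted p = 0.088), all in limma. With the amount not removed it was 0.67 ± 0.87 for aged impaired against young. A separation at equal amount was not particular to Slc4a5. Cldn2 had a highest value of 7.82 in aged impaired and a lowest of 7.87 in young samples. Clic6 had a lowest value of 9.83 in aged impaired and a highest of 9.80 in aged unimpaired samples. The share of all probe sets separated at equal amount was not computed.

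The Slc4a5 difference passed under 5 alternatives for aged impaired against young. It had an adjusted p of 0.0129 with an offset of 64, 0.0434 with trended and robust moderation, 0.0492 with a covariate for the 3' to 5' signal ratio of control transcripts, and passed without aged unimpaired replicate 3 or 4. It was 0.51 (adjusted p = 0.0529) in the 13 arrays above the gap, and 0.56 (adjusted p = 0.135) without young replicate 6, whose Slc4a5 signal was near the offset. For aged unimpaired against young, Slc4a5 had 0.32 without that array. The 3' to 5' ratio, a sign of RNA quality on a log2 scale, was 0.30 ± 0.05 in aged impaired, 0.36 ± 0.06 in aged unimpaired and 0.31 ± 0.07 in young samples (SD, n = 6 each).

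Cldn2 had a difference of -0.37 ± 0.11 for aged impaired against young at equal amount (95% interval -0.61 to -0.13, adjusted p = 0.109 in limma), and its other tested probe set had -0.42 ± 0.26. Trpv4 had 0.69 ± 0.28 for both aged groups against young (0.11 to 1.27, adjusted p = 0.267), on low signals. The Trpv4 difference was 0.42 without young replicate 3, which at equal amount stood at 4.25, and 0.41 with the stromal mean as a second covariate. For Ttr the same comparison gave -0.27 with an interval of -0.71 to 0.16, for Folr1 0.04 with -0.18 to 0.26, and for Kl -0.06 with -0.31 to 0.19.

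Igf2 had a difference of -0.37 ± 0.12 for both aged groups against young at equal amount (95% interval -0.63 to -0.11, adjusted p = 0.174 in limma). Of the 16 meninges and stroma genes 1 was called in the same comparison. Their median difference for both aged groups against young was -0.38 at equal amount, and their mean log2 value lay between 7.67 and 8.73 in aged impaired, 7.80 and 8.73 in aged unimpaired and 8.35 and 9.04 in young samples. With the stromal mean as a second covariate the Igf2 difference was -0.06. Since the stromal genes had a median difference of -0.38 themselves, a stromal and an age difference cannot be told apart here. The cause was not tested. The called gene was Col1a1, a fibrillar collagen chain, with -1.02 ± 0.22 for both aged groups against young (adjusted p = 0.0302).

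Among the other choroid plexus genes, Cox8b, a subunit of cytochrome c oxidase, rose at equal amount in both aged groups against young. Its difference was 0.84 ± 0.14 (adjusted p = 0.00653, limma), with 0.79 in aged impaired and 0.90 in aged unimpaired samples against young. With the amount not removed it was 0.49 (adjusted p = 0.763). Slc12a2, a sodium, potassium and chloride cotransporter also found outside choroid plexus, was higher by 0.53 ± 0.11 in aged impaired than in young samples at equal amount (adjusted p = 0.0189) and by 0.54 with the amount not removed (adjusted p = 0.0503). These were the calls among the 27 tested genes of that list, and both were named after their values were seen. Neither was examined under the alternatives applied to the members.

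The groups were separated by no member on the levels themselves. The 2 groups compared did not overlap for 0 of 25 members in each comparison. Over all probe sets they did not overlap for 0.525% between aged impaired and aged unimpaired, 0.766% between aged unimpaired and young, and 2.01% between aged impaired and young.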

How the data were processed

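The authors deposited 1 intensity per probe set and array, on a linear scale, and the submitters' processing notes name MAS5 without a version. The deposited table holds 45101 probe sets with a trimmed mean of 150 on each array; detection calls and scanner files were not used here. Arrays have no read depth, and precision is limited by how many there are.

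From the deposited intensity, arrays were scaled to a trimmed mean of 500 (2% trimmed at each end), and log2 of signal plus 16 was taken, which understates the changes of genes with low signal. Left out were the 64 control probe sets and the lowest 40% of the others, so that 27022 were tested. Names came from the platform annotation, updated through a RefSeq table of GRCm38.p6, and 34958 probe sets had 1 symbol. limma 3.58.1 in R 4.3.3 fitted 3 group means to all 18 arrays, with and without the amount as a covariate with a slope for each probe set. Tests were 2-sided with Benjamini-Hochberg adjustment over all tested probe sets, and a call is an adjusted p under 0.05. A value after ± is the SE from limma, or an SD where so named. The fit was tested on simulated data.

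The members and lists were chosen with earlier results of these data known. All 30 members are named, plus the 10 other genes of highest slope t and up to 4 genes of lowest p from each list; further genes were named after their values were seen. Promoters are those of the 2 members of largest slope with a printable RefSeq entry, since none was called between groups. The labels number samples 1 to 6 in each group, and samples of the same number did not deviate together (r from -0.247 to 0.0957 over 18 pairs, 0 of them over 0.1), so the numbers were not taken as pairs. Alternatives were other offsets, quantile normalization, other filters, moderation and weights, other definitions of the amount, further covariates, the replicate block, and leaving out each sample.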

Additional observations from a re-analysis of the deposited data

Results flagged for a closer look

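In aged impaired replicate 5, 4 transcripts lay far below the other 5 samples of the group. F5 was at 6.649, with the nearest of the others at 8.29. Sulf1 was at 6.891, against 8.78. Steap1 was at 5.585, against 8.23, and Ace was at 7.363, against 8.607. The gap to the nearest sample exceeded Dixon's 95% critical value for 6 samples in these 4 of 78 sets of 6 values, or 5.13%, where chance flags about 1 in 20. This array had the lowest choroid plexus amount of its group, and the 4 genes share that array, so they are not separate observations.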

How the results depend on the processing

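Counts of members called without the amount were 0 in all 4 comparisons under 10 or 11 alternatives and in 18 fits that left out a sample. At equal amount the count was 0 throughout for aged impaired against aged unimpaired and for aged unimpaired against young, under 16 alternatives. For aged impaired against young it was 1, Slc4a5, with an offset of 64, with trended and robust moderation and with the 3' to 5' ratio as a covariate, and 0 to 1 over fits that left out a sample, with 1 without aged unimpaired replicate 3 or 4. For both aged groups against young it was 1 with an offset of 64, and 0 to 1 over the left-out fits, with 1 without aged unimpaired replicate 3. The cause was not tested. Over 33 alternatives the Slc4a5 difference between aged impaired and young samples lay between 0.48 and 1.17, with adjusted p from 0.0129 to 1. The count of members that follow the amount was 21 to 26 over alternatives and 25 in all left-out fits, 26 where Tmem72 entered and 21 in the 13 arrays above the gap, which holds fewer samples. With the replicate number as a block, 25 members followed the amount and 0 were called in every comparison, and no call changed. The sign of an uncalled difference changed under at least 1 alternative for 68 of 100 differences without the amount and 67 of 100 at equal amount, so the direction of most is not settled; 0 of 25 slopes changed sign. A second limit is that dim genes such as Slc4a5 and Trpv4 reach the offset in the arrays of lowest amount.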
